A study of Mus musculus with 6 samples.

Results

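Kidney and ureter arise from the same embryonic outgrowth, the ureteric bud, and its surrounding mesenchyme. In the kidney the tips of the bud induce progenitor cells to form nephrons, each with a glomerulus that filters blood and tubules that recover ions, sugars and amino acids. In the ureter the stalk of the bud becomes the urothelium, a water-tight lining, and the mesenchyme around it becomes smooth muscle, which moves urine to the bladder, and an outer connective tissue layer. The genes that mark each tissue in newborn mice were described here by comparing 4 kidney libraries with 2 ureter libraries, which are all 6 RNA-seq libraries of the series. The members were chosen by the tissue named in the column of the deposited table. The tissue labels of the samples name the same tissues, although the titles of both ureter samples call them kidney.

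The kidney libraries came from 2 Ahnak knockout (KO) and 2 wild-type (WT) samples, and the ureter libraries from 1 Ahnak KO and 1 WT sample. The mice were at postnatal day 1 (PN1), and the KO allele disrupts exon 5 of Ahnak, which encodes a very large membrane-associated scaffold protein. RNA was extracted from 2 to 4 kidneys or ureters according to the methods, which do not say whether these were pooled in a library. The methods do not give the number of animals in a library either, so p-values measure the spread between these libraries. They mention 2 biological replicates, whereas the series holds 1 ureter library per genotype. Genotype was a term in the model and not the subject. The model had 3 residual degrees of freedom. With 1 ureter library per genotype, the spread behind the p-values was estimated mainly from the kidneys. The KO ureter library held 36410246 estimated counts and the WT ureter library 54985927, against 55744703 to 66095616 in the kidney libraries. Values below are CPM (counts divided by the library total as scaled with the TMM factors of edgeR, times 1e+06), or TPM, which also corrects for transcript length, where genes are compared with each other. A difference is log2 of kidney over ureter, so that a negative value is higher in ureter. Where every library of a tissue held 3 counts of a gene or fewer, only a limit on the fold is given, and a listed 0 is an entry of the table and not proof of absence. In bulk tissue, fewer cells of a type and less RNA per cell cannot be told apart.

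The libraries differed in other ways that touch these values. The ribosomal transcript Rn45s took 8.06% of the counts in the KO ureter library and 0.496% to 0.632% in the other 5. KO kidney replicate 1 had 0 counts on the 4 Y chromosome genes listed and 2916 CPM of Xist, while the other 5 libraries had at most 0.699 CPM of Xist. Ahnak was counted in all 6 libraries. It had 139 and 130 CPM in KO kidneys, 183 and 189 CPM in WT kidneys, 635 CPM in the KO ureter and 727 CPM in the WT ureter. Both ureters lay above all 4 kidneys in Ahnak, with a log2 difference of -2.10 (SE 0.0998, edgeR adjusted p = 3.03e-05). The KO libraries were the lower ones within each tissue. The counts are summed over the gene and do not show exon 5 by itself, and the source of the counts in KO libraries was not tested.

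Of 16873 genes tested, 3992 were higher in kidney (23.7%) and 3603 were higher in ureter (21.4%) at an adjusted p under 0.05 in the quasi-likelihood test of edgeR, which makes 45.0% called in either direction. With a fold over 2 besides, 2152 genes were higher in kidney (12.8%) and 2013 were higher in ureter (11.9%). All 4 kidney libraries lay above both ureter libraries for 5538 genes (32.8%), and both ureter libraries above all 4 kidney libraries for 4750 genes (28.2%). Kidney libraries correlated with each other at 0.992 to 0.997 in log2 CPM across genes and the ureter libraries at 0.985, while correlations between tissues ran from 0.925 to 0.938. Of the calls, 52.6% were higher in kidney, a share that rose to 72.0% when libraries were scaled by total counts alone, which moved the median difference of all genes by 0.289. The shares of each list below are read against these values. Most lists hold known markers of a tissue or cell type and were chosen with earlier results of these data known. A high share is therefore a description and not a test.

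**Figure D1:**
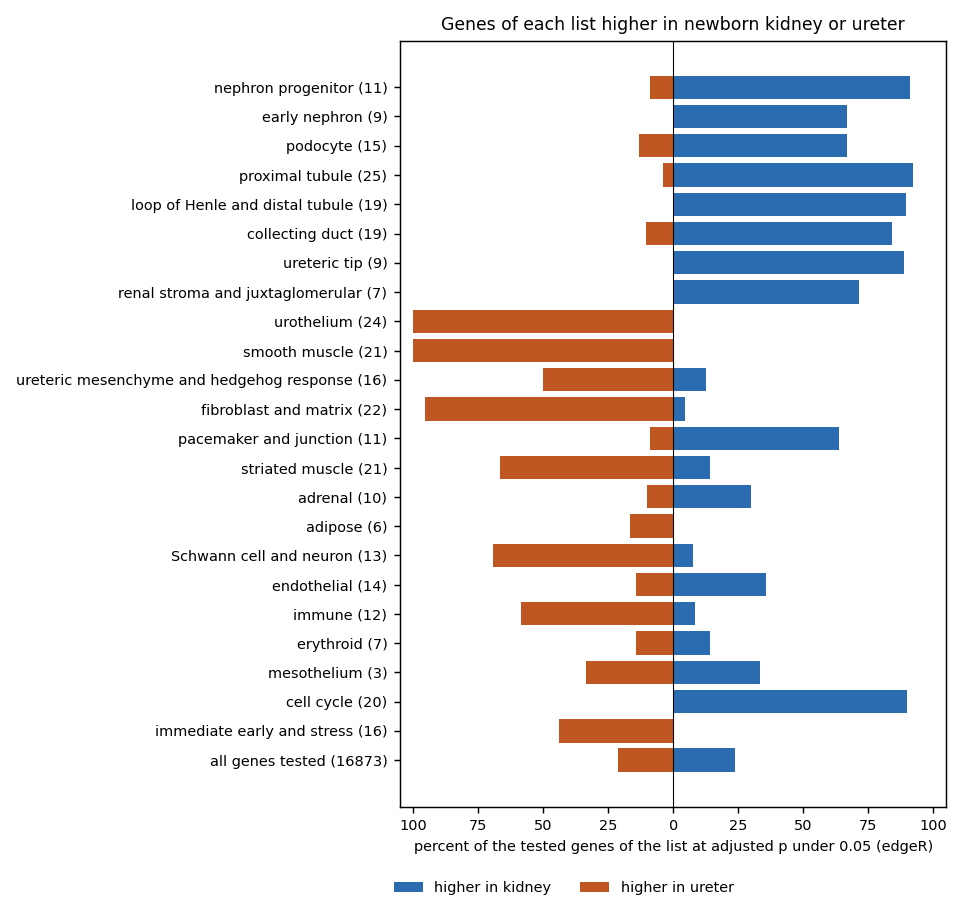
Percent of the tested genes of each list that were higher in kidney (blue, to the right) or in ureter (orange, to the left) at an adjusted p under 0.05 in edgeR. The number of tested genes is in brackets, and the lowest bar gives all 16873 genes, with 23.7% higher in kidney and 21.4% higher in ureter.

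Genes of the nephron and collecting duct were, with few exceptions, higher in kidney. Over 7 lists that run from nephron progenitors to the collecting duct and ureteric tips, 90 of 107 tested genes were higher in kidney (84.1%) and 6 were higher in ureter (5.61%). In both ureter libraries 36 of these genes were listed at 0. These were mostly genes of mature tubules, since 32 of the 36 belong to the proximal tubule, the loop of Henle and distal tubule, or the collecting duct.

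Nephron progenitors, the cells that renew themselves at the kidney surface until they form nephrons, were marked by 10 of 11 genes higher in kidney, with a median difference of 4.26. Six2, a transcription factor that keeps progenitors undifferentiated, had 118 and 100 CPM in KO kidneys and 100 and 122 CPM in WT kidneys. In ureter it was listed at 0 in the KO library and had 1.07 CPM in the WT library. The tissues did not overlap, and the log2 difference was 7.58 (SE 0.765, edgeR adjusted p = 0.000526). Sall1, a zinc finger factor of the same cells, was at 204 ± 19.4 CPM in kidney (SD, n = 4) and 0.739 ± 0.713 CPM in ureter (SD, n = 2). Gdnf, the ligand by which progenitors call the ureteric bud to branch, was at 66.3 ± 9.05 CPM and 0.540 ± 0.336 CPM. Eya1 differed by 6.02 and Cited1 by 4.73 on the log2 scale. Meox1 and Tmem100 were also higher in kidney, but with 8.61 to 18.2 CPM in the ureter libraries. Itga8, higher in kidney by 2.37, had 29.8 and 45.8 CPM in the KO and WT ureters.

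Osr1, the odd-skipped factor of the early urogenital mesenchyme, was the only progenitor gene of the 11 that was higher in ureter. It had 16.2 and 15.7 CPM in KO kidneys, 14.6 and 19.6 CPM in WT kidneys, and 69.6 and 87.0 CPM in the KO and WT ureters. The log2 difference was -2.24 (SE 0.146, edgeR adjusted p = 9.17e-05).

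Among 9 early nephron genes, 6 were higher in kidney and 0 were higher in ureter. Lhx1, a transcription factor of the first renal vesicles, had 27.7 to 37.8 CPM in kidney and was listed at 0 in both ureters, which made it at least 409-fold higher in kidney. Fgf8, a growth factor of the same structures, was at least 100.3-fold higher. Pax8 was at 5.75 and 6.28 CPM in ureter against 117 to 143 CPM in kidney. Wnt4, which drives the change from mesenchyme to epithelium, was the closest of the genes called, at 103 to 116 CPM in kidney and 51.8 to 76.3 CPM in ureter (log2 difference 0.76). The Notch ligand Jag1 did not pass, with a difference of 0.33 (SE 0.129, edgeR adjusted p = 0.0784).

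The podocyte list, for the cells that hold the filter of the glomerulus, split. Of 15 genes, 10 were higher in kidney, 2 were higher in ureter and 3 did not pass, with a median of 3.10. Nphs1, which encodes the slit protein nephrin, had 33.0 to 50.3 CPM in kidney and was listed at 0 in both ureters, at least a 533-fold difference. Wt1, a regulator of podocytes and progenitors, was at 217 ± 13.8 CPM (SD, n = 4) and 6.41 ± 3.68 CPM (SD, n = 2). Plce1, a phospholipase used in glomerular development, ran the other way, with 17.3 to 22.2 CPM in kidney and 113 and 128 CPM in ureter (log2 difference -2.59, SE 0.125, edgeR adjusted p = 3.20e-05). Cd2ap, an adaptor that binds nephrin, was called higher in ureter with a difference of -0.37, a call lost without any 1 of the 6 libraries except the KO ureter (-0.39 to -0.21) and, at -0.08, when libraries were scaled by total counts alone. Synpo, Thsd7a and Cdkn1c differed by -0.12, 0.47 and 0.07 with adjusted p of 0.629, 0.229 and 0.745 in edgeR.

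The basement membrane of the glomerulus uses another set of type IV collagen chains than most epithelia, and the chains did not all differ in the same direction. The mature filter is built from the chains of Col4a3, Col4a4 and Col4a5. Col4a3 and Col4a4 had 34.3 to 52.4 CPM in kidney and 1.17 to 1.82 CPM in ureter, with log2 differences of 4.61 and 4.82. Col4a1 and Col4a2, found in most basement membranes, were higher in kidney by 0.44 and 0.68, and neither call held without the WT ureter (differences 0.34 and 0.59), nor that of Col4a1 without KO kidney replicate 1 (0.41). Col4a5, although a chain of the filter, and Col4a6 were higher in ureter, by -0.77 and -1.67. Col4a5 was at 93.7 to 110 CPM in kidney and 169 and 173 CPM in ureter.

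The proximal tubule, where most of the filtered solute is recovered, gave 23 of 25 genes higher in kidney with 11 at the 3-count limit in ureter. The median difference was 7.94, or 6.57 with those genes set to their limits. Lrp2, the endocytic receptor megalin, had 476 and 295 CPM in KO kidneys and 297 and 477 CPM in WT kidneys, against 0.269 and 0.602 CPM in the KO and WT ureters. The tissues did not overlap, and the spread among the kidneys did not follow genotype, since KO replicate 1 and WT replicate 2 were the higher pair. The phosphate transporter Slc34a1 followed the same order, with 319, 209, 210 and 299 CPM, and the androgen-regulated gene Kap had the opposite one, with 120, 244, 239 and 70.0 CPM. Slc34a1 was at least 3259.5-fold, Ggt1 at least 2681-fold and Slc22a6, the organic anion transporter, at least 1137-fold higher in kidney. Hnf4a, a nuclear receptor that activates proximal genes, was at 104 ± 6.19 CPM in kidney (SD, n = 4) and 1.44 ± 0.325 CPM in ureter (SD, n = 2). Aqp1, the water channel of the proximal tubule and of blood vessels, was higher in ureter, with 132 to 172 CPM in kidney and 318 and 221 CPM in ureter (log2 difference -0.76, SE 0.150, edgeR adjusted p = 0.00806). Without the KO ureter its difference was -0.54 and the call was lost. Ass1, an enzyme of arginine synthesis, was at 0.281 to 0.909 CPM in kidney and 4.77 and 0.622 CPM in ureter and did not pass.

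Promoters of the proximal tubule list were searched for binding motifs of factors known to act there, as a description of sequence only. RefSeq windows (GRCm38) of 250 bases before to 50 after the start were at hand for 21 of the 25 genes. The HNF1 motif GTTAATNAT, on either strand, was in 1 of the 21 (4.76%) and in 0.940% of all 27025 genes with a window. The HNF4 motif CAAAGTCCA was in 1 of the 21 (4.76%) and in 0.555% of all genes. The matches were in G6pc, the last enzyme of glucose release, on chr11:101367466-101367533, and in Slc3a1, a subunit of the cystine transporter, on chr17:85028278-85028346, both on the plus strand and upstream of the start. The stretches are printed with the motif in capitals to show what was matched.
G6pc: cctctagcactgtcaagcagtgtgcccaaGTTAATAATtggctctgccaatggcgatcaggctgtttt
Slc3a1: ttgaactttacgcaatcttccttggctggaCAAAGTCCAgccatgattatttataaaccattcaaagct
G6pc had 3.74 to 29.8 CPM in kidney and 0.269 and 1.05 CPM in ureter, and Slc3a1 had 39.4 to 68.8 CPM and 0.572 and 0 CPM. The call for G6pc was lost without the KO ureter (difference 3.20) or WT kidney replicate 1 (4.22).

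The loop of Henle and distal tubule, which dilute the urine and set its salt, had 17 of 19 genes higher in kidney and 0 higher in ureter. The median was 12.70, or 7.55 with the 11 genes at the limit in ureter set to their limits. Slc12a1, the salt transporter that loop diuretics block, had 317 and 276 CPM in KO kidneys, 270 and 374 CPM in WT kidneys and 0 in both ureters, so that it was at least 3888-fold higher in kidney. Umod, which encodes uromodulin, the main protein of normal urine, was at least 1455-fold higher, and the calcium-binding protein gene Calb1 at least 2939-fold higher. Cldn16 and Cldn19, whose proteins form the magnesium and calcium path between cells of the loop, were both listed at 0 in ureter and were at least 119-fold and 637-fold higher in kidney. Ptger3 did not pass, at 5.14 to 11.3 CPM in kidney and 7.50 and 5.81 CPM in ureter.

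The collecting duct descends from the same bud as the ureter lining, and here 16 of 19 genes were higher in kidney while 2 were higher in ureter. Aqp2, the water channel under the control of vasopressin, had 304 and 352 CPM in KO kidneys, 374 and 255 CPM in WT kidneys and 0 in both ureters. It was at least 4036-fold higher in kidney. The vasopressin receptor gene Avpr2 was at least 126-fold higher, and Foxi1, the factor that specifies the acid-base cells of the duct, at least 189-fold. The sodium channel subunits differed less. Scnn1a and Scnn1b were higher in kidney by 2.43 and 1.05 on the log2 scale, and Scnn1g did not pass, with 41.4 to 48.0 CPM in kidney and 46.3 and 69.2 CPM in ureter.

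Aqp3 and Gata3 were the 2 collecting duct genes that were higher in ureter. Aqp3, a water and glycerol channel of basolateral membranes, had 80.1 and 66.9 CPM in KO kidneys, 72.5 and 62.1 CPM in WT kidneys, and 505 and 319 CPM in the KO and WT ureters. Its log2 difference was -2.52 (SE 0.153, edgeR adjusted p = 7.16e-05). Gata3, a factor of the ureteric bud and its descendants, had 60.1 to 66.5 CPM in kidney and 175 and 162 CPM in ureter, a difference of -1.42. The urea transporter gene Slc14a1, a member of the solute carrier family, was also higher in ureter, with 3.48 to 7.35 CPM in kidney and 180 and 133 CPM in ureter (log2 difference -4.96, SE 0.330). Aqp2 and Aqp3 thus lay in opposite directions, and in neither did the tissues overlap.

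The tips of the branching ureteric bud, which persist in the newborn kidney, had 8 of 9 genes higher in kidney. Ret, the receptor for Gdnf, had 37.4 to 52.9 CPM in kidney and 2.02 and 2.25 CPM in ureter (log2 difference 4.37, SE 0.220, edgeR adjusted p = 3.65e-05). Wnt11, a tip ligand, differed by 2.17 and Etv5, a target of Ret signalling, by 1.02. Of 7 stromal and juxtaglomerular genes, 5 were higher in kidney. Ren1, which encodes renin, had 406, 116, 178 and 260 CPM in the 4 kidneys and 5.28 and 2.64 CPM in the ureters. Foxd1, a factor of renal stroma, did not pass, at 14.1 to 19.7 CPM in kidney and 18.8 and 17.7 CPM in ureter.

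**Figure D2:**
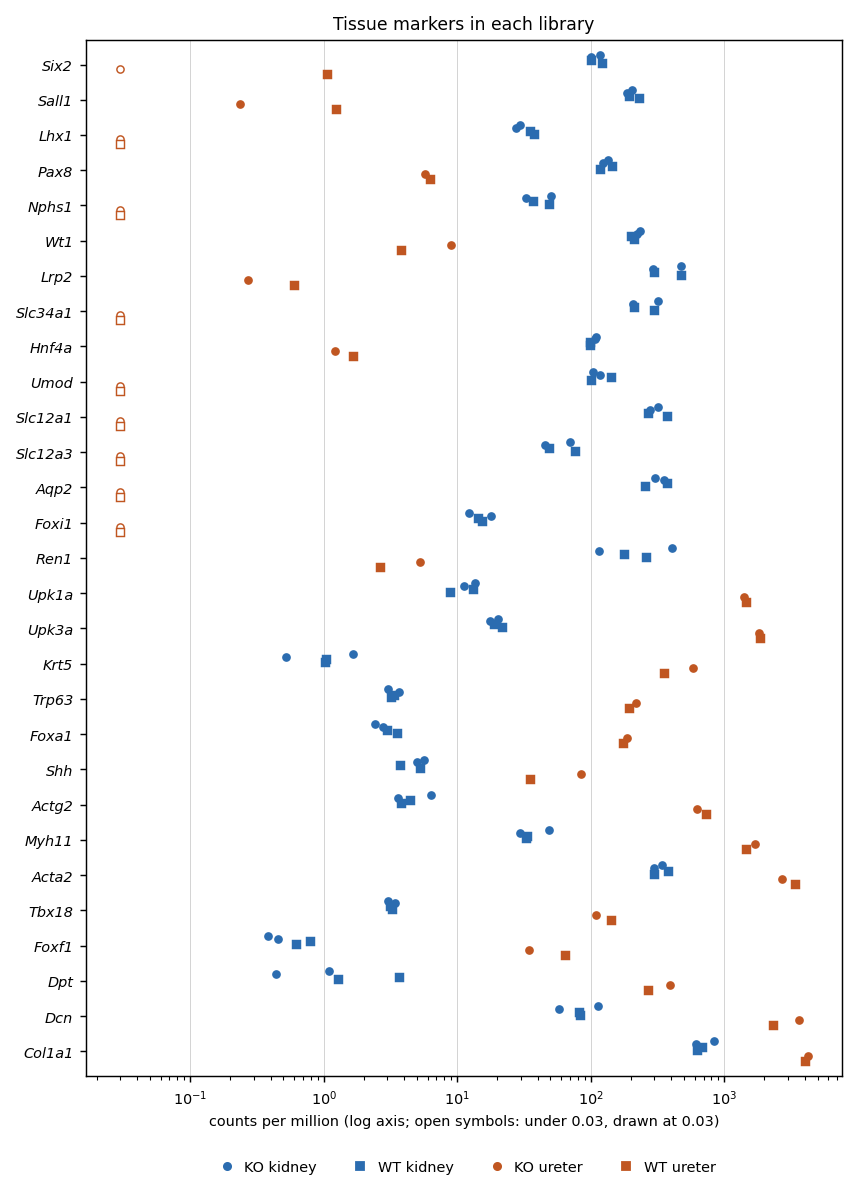
CPM of 29 markers in each library on a log axis, with kidney in blue, ureter in orange, KO as circles and WT as squares. Aqp2, Slc12a1, Slc12a3, Slc34a1, Umod, Nphs1, Lhx1 and Foxi1 are drawn as open symbols at the left edge for both ureters because they were listed at 0, while every urothelial and muscle marker shown has counts in all 4 kidneys.

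The ureter wall was marked by its lining, its muscle and its matrix. Over the lists of urothelium, smooth muscle, and fibroblasts and matrix, 66 of 67 tested genes were higher in ureter (98.5%) and 1 was higher in kidney. Of these 67 genes, 0 were at the 3-count limit in kidney, as were only 75 of all 16873 genes tested, against 910 at the limit in ureter. The limit must be met by all 4 libraries in kidney and by 2 in ureter.

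The urothelium list had 24 of 24 genes higher in ureter, with a median of -5.96, and no gene overlapped between tissues. The uroplakins form the plaques on the surface of the lining. Of these, Upk3a had 20.4 and 17.7 CPM in KO kidneys, 18.9 and 21.6 CPM in WT kidneys, and 1816 and 1840 CPM in the KO and WT ureters, a log2 difference of -6.54 (SE 0.113, edgeR adjusted p = 2.48e-06). Upk1b differed by -7.10, Upk1a by -6.93, Upk2 by -6.72 and Upk3b by -6.25. The summed CPM of the list was 363 to 463 in kidney and 13729 and 17850 in ureter, so kidney held 2.65% of the level in ureter.

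Genes of the basal and intermediate layers of the lining were higher as well. Krt5, the keratin of basal cells, had 0.522 to 1.67 CPM in kidney and 587 and 353 CPM in ureter (log2 difference -8.75, SE 0.415, edgeR adjusted p = 3.03e-05). Trp63, the factor of basal cells, was at 3.31 ± 0.278 CPM in kidney (SD, n = 4) and 206 ± 19.4 CPM in ureter (SD, n = 2). The regulators Foxa1, Pparg and Grhl3 differed by -5.96, -4.80 and -6.35. Shh, the signal from the lining to the mesenchyme around it, was at 3.74 to 5.69 CPM in kidney and 84.6 and 35.0 CPM in ureter, a difference of -3.50. Ly6d, a surface protein of squamous and basal cells, had at most 0.576 CPM in kidney and 668 and 316 CPM in ureter.

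Keratins and some other epithelial genes were also higher in ureter. Of 24 keratins tested, 13 were higher in ureter and 2 in kidney, and the 2 were Krt39 and Krt222, both under 1 CPM in every kidney and listed at 0 in ureter. Both calls were lost without the KO ureter, the WT ureter or WT kidney replicate 2, that of Krt39 also without WT kidney replicate 1, and that of Krt222 also without KO kidney replicate 1. Krt8 and Krt18, keratins of simple epithelia, were higher in ureter by -3.38 and -3.68 although no kidney had less than 140.0 CPM of either. The small proline-rich gene Sprr1a, a component of cornified envelopes, had 16.1 to 28.4 CPM in kidney and 3014 and 1824 CPM in ureter. Duox1, an oxidase, had at most 0.0673 CPM in kidney and 14.7 and 12.045 CPM in ureter, and Duoxa1, its maturation factor, was listed at 0 in all 4 kidneys and was at least 289-fold higher in ureter. By TPM, Sprr1a, S100a6 and Upk3a were among the 10 highest genes called higher in ureter with a fold over 2, with means of 4933, 4631 and 2707.5 TPM in ureter.

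Claudins, which seal or form channels between epithelial cells, were divided between tissues. Of 19 tested, 10 were higher in kidney and 4 in ureter. Cldn2, the sodium pore of the proximal tubule, had 62.5 to 84.8 CPM in kidney and 0 and 0.408 CPM in ureter. Cldn4 had 36.0 to 49.3 CPM in kidney and 553 and 466 CPM in ureter (log2 difference -3.48, SE 0.136, edgeR adjusted p = 1.59e-05), and Cldn23 differed by -6.29. Cldn7 and Cldn8 were higher in ureter by smaller amounts, -0.88 and -0.85. Cldn7 was not called without the KO ureter (-0.49), nor Cldn8 without the WT ureter (-0.34), either WT kidney, or with libraries scaled by total counts alone (-0.57).

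Smooth muscle genes were all higher in ureter, 21 of 21, with a median of -3.04 and no overlap between tissues. Actg2, the actin of visceral smooth muscle, had 6.35 and 3.59 CPM in KO kidneys, 4.41 and 3.82 CPM in WT kidneys, and 626 and 734 CPM in the KO and WT ureters. Its log2 difference of -7.23 (SE 0.263, edgeR adjusted p = 1.34e-05) was the largest of the list. Acta2, the actin also used by vessel walls and pericytes, was at 330 ± 38.9 CPM in kidney (SD, n = 4) and 3065 ± 475 CPM in ureter (SD, n = 2), a difference of -3.21. Myh11, the smooth muscle myosin, differed by -5.45, Cnn1 by -5.51 and Myocd, the coactivator of the muscle program, by -4.53. Smtn, Cald1 and Flna, which many other cells use, differed by -0.43, -0.49 and -0.72. The calls for Smtn and Cald1 were lost without the WT ureter (-0.14 and -0.29), without WT kidney replicate 2 (-0.37 and -0.44) and with scaling by total counts alone (-0.15 and -0.20). The call for Smtn was also lost without KO kidney replicate 2 (-0.46) or WT kidney replicate 1 (-0.40), and with no genotype term (-0.46).

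The CArG box, the site of serum response factor in muscle promoters, was searched in the same windows for the 17 smooth muscle genes that had one. It was in 1 of them (5.88%) and in 1.81% of all genes with a window. The match was upstream of Myl9, which encodes a myosin light chain, on the plus strand at chr2:156775273-156775342 (GRCm38), and is shown in capitals.
Myl9: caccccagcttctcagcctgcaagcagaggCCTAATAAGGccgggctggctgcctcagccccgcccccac
Myl9 had 167 to 216 CPM in kidney and 1113 and 1361 CPM in ureter. A window of this size does not reach the first intron or distal sites.

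The list of ureteric mesenchyme and hedgehog response genes was divided. Of 16 genes, 8 were higher in ureter, 2 were higher in kidney and 6 did not pass. Tbx18, which specifies the mesenchyme that becomes ureter muscle, had 3.01 and 3.40 CPM in KO kidneys, 3.12 and 3.26 CPM in WT kidneys, and 110 and 141 CPM in the KO and WT ureters (log2 difference -5.29, SE 0.131, edgeR adjusted p = 5.31e-06). Foxf1, a forkhead factor downstream of hedgehog signals, had 0.38 to 0.787 CPM in kidney and 34.4 and 64.7 CPM in ureter. Tbx3, Gata6 and Tshz3 were also higher in ureter, by -1.43, -2.08 and -1.42, and the call for Tshz3 was lost without the WT ureter (-0.96). Tshz2 and Sox9 did not pass and overlapped between tissues, with 63.1 to 81.6 CPM of Tshz2 in kidney and 72.1 and 87.0 CPM in ureter, and 15.4 to 23.4 CPM of Sox9 in kidney and 31.4 and 22.0 CPM in ureter.

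Beside the higher Shh in ureter, receptors and targets of the pathway gave smaller differences. Ptch1, a receptor and general target, had 87.3 to 97.2 CPM in kidney and 81.9 and 109 CPM in ureter, a difference of -0.01 (SE 0.115, edgeR adjusted p = 0.939). Gli1 was at 50.9 to 67.7 CPM and 41.5 and 54.5 CPM, and Gli3 and Bmp4 did not pass either. With libraries scaled by total counts alone Ptch1 was at 0.27 without a call, and Gli1, Gli3 and Bmp4 were called higher in kidney, at 0.59, 0.43 and 0.62. Hhip, a target that binds the ligand, was higher in ureter by -1.97. The transducer Smo was called higher in kidney, by 0.45, a call lost without the KO ureter (0.30).

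Connective tissue genes were higher in ureter for 21 of 22 genes, with a median of -2.47. Dcn, the proteoglycan decorin, had 114 and 57.9 CPM in KO kidneys, 82.3 and 83.0 CPM in WT kidneys, and 3609 and 2313 CPM in the KO and WT ureters. The fibrillar collagens Col1a1 and Col3a1 were 6.02-fold and 5.95-fold higher in ureter, while Dpt and Lum, small matrix proteins of fibroblasts, were 240-fold and 90.4-fold higher. Eln, which encodes elastin, had 571 CPM in the KO ureter and 1155 CPM in the WT ureter. Tnc, a matrix protein of developing tissue, was the exception, with 140 to 176 CPM in kidney and 112 and 44.0 CPM in ureter (log2 difference 1.11, SE 0.311, edgeR adjusted p = 0.0280), a call lost without the WT ureter (0.49) or WT kidney replicate 2 (1.10). Over all 43 collagen chains tested, 22 were higher in ureter and 12 in kidney, and Col2a1, the cartilage chain, was the most kidney-biased of them at 5.13.

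Genes linked to the pacemaker and electrical coupling of the upper urinary tract leaned to kidney. Of 11 tested, 7 were higher in kidney and 1 in ureter. The tyrosine kinase gene Kit had 42.3 and 39.0 CPM in KO kidneys, 42.3 and 34.5 CPM in WT kidneys, and 13.1 and 5.95 CPM in the KO and WT ureters, a difference of 2.13 (SE 0.280, edgeR adjusted p = 0.00154). The gap junction genes Gja1 and Gjc1 were higher in kidney by 1.71 and 1.14, and the T-type calcium channel genes Cacna1g and Cacna1h by 1.44 and 0.87, of which Cacna1h lost its call without the KO ureter (0.46), KO kidney replicate 2 or WT kidney replicate 2. The chloride channel gene Ano1, used by pacemaker cells and by secretory epithelia, was the one gene higher in ureter, at 46.8 to 58.4 CPM in kidney and 292 and 184 CPM in ureter. Cacna1d was also higher in kidney, by 1.12, and so was Hcn3, by 1.98. The levels of Hcn3 were low, at 1.48 to 3.07 CPM in kidney and 0.807 and 0.505 CPM in the KO and WT ureters. Hcn4 did not pass, at 0.606 to 2.12 CPM in kidney and 0.908 and 0 CPM in ureter, and Hcn2 did not pass either.

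**Figure D3:**
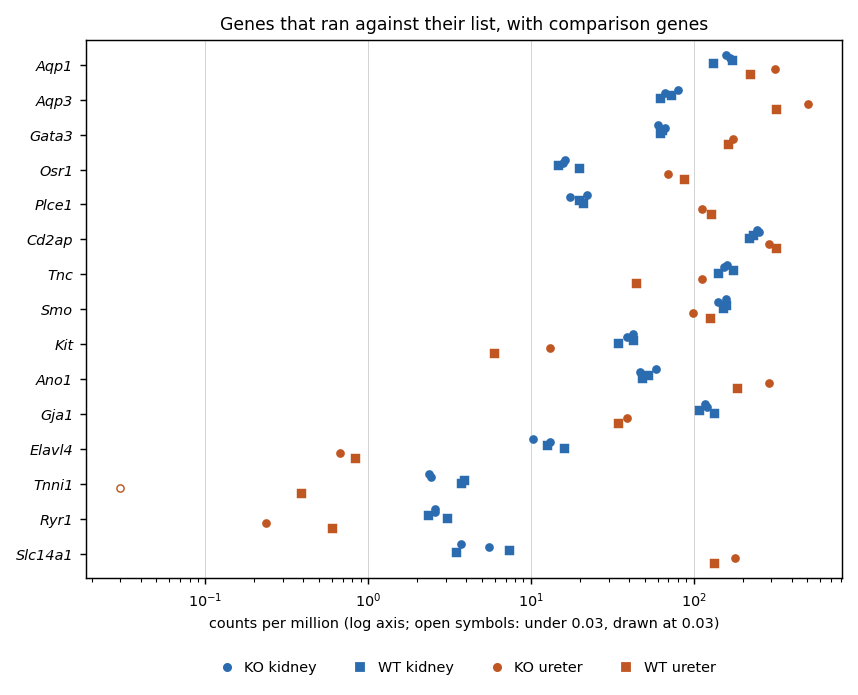
CPM in each library, on a log axis, of genes that ran against the direction of their list, with Kit, Gja1 and Slc14a1 for comparison. Aqp3, Gata3, Osr1 and Plce1 are higher in both ureters than in any kidney, and Tnc, Kit and Elavl4 are higher in every kidney than in either ureter.

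Hox genes, which give position along the body axis, separated the tissues at the end of the clusters. Of 36 tested, 30 were higher in kidney, 2 were higher in ureter and 4 did not pass, with a median of 1.51. All 7 tested genes of paralog groups 10 to 12 were higher in kidney, with a median of 2.803. Hoxd11, which with Hoxa11 is needed for kidney formation, had 102 and 80.9 CPM in KO kidneys, 89.2 and 98.3 CPM in WT kidneys, and 8.14 and 19.8 CPM in the KO and WT ureters. Hoxa11 differed less, by 0.966 against 2.802 for Hoxd11. Paralog group 13 went the other way. Hoxa13, the gene of the most distal urogenital tract, was listed at 0 in all 4 kidneys and had 4.64 and 5.61 CPM in ureter, so it was at least 107-fold higher there. Hoxd13 had 0.0983 to 0.279 CPM in kidney and 4.84 and 4.92 CPM in ureter (log2 difference -4.97, SE 0.528, edgeR adjusted p = 0.000644).

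**Figure D4:**
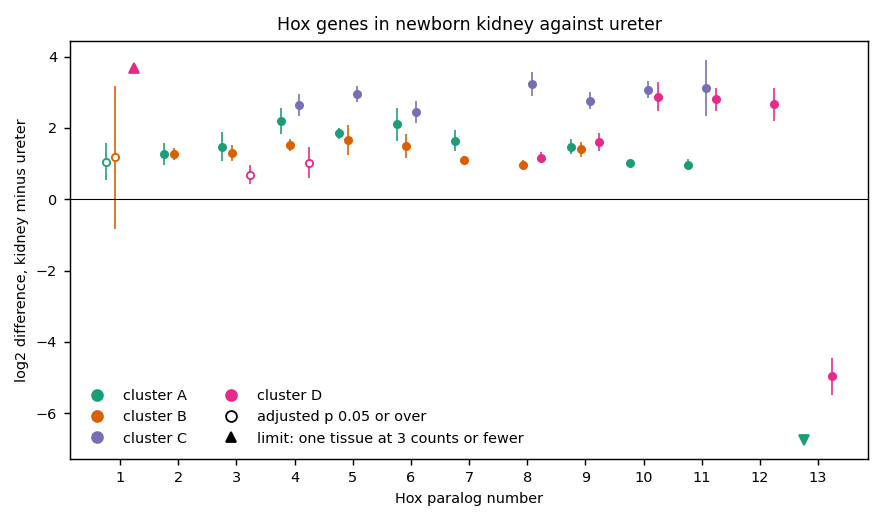
Log2 difference of kidney minus ureter, with its SE (derived from the F statistic of edgeR), for 36 Hox genes by paralog number and cluster. Filled circles passed an adjusted p under 0.05 in edgeR, open circles did not, and triangles are limits for Hoxd1, at 3 counts or fewer in ureter, and Hoxa13, at 3 counts or fewer in kidney. Only the genes of group 13 lie below 0.

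Transport genes as a family leaned to kidney. Of 335 solute carriers tested, 134 were higher in kidney, 58 were higher in ureter and 143 did not pass, with a median of 0.39. At the limit of 3 counts were 52 of them in ureter and 2 in kidney, against 910 and 75 of all 16873 genes tested. The highest genes by TPM among those called higher in kidney with a fold over 2 were Fxyd2 (mean 1581 TPM in kidney), a regulator of the sodium pump, and S100g (1526 TPM), a calcium-binding protein of the distal tubule. Atp1b1, a subunit gene of the sodium pump, was also among the first 10 and was 4.81-fold higher in kidney. S100g had 257 to 396 CPM in kidney, 0.370 CPM in the KO ureter and 0 in the WT ureter.

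Genes of dividing cells were higher in kidney. Of 20 cell cycle genes, 18 were higher in kidney and 0 in ureter, with a median of 0.87. Mki67, a protein of cycling nuclei, had 592 and 537 CPM in KO kidneys, 596 and 646 CPM in WT kidneys, and 228 and 254 CPM in the KO and WT ureters, a difference of 1.296 (SE 0.1, edgeR adjusted p = 0.000170). Pcna and Tyms did not pass, with differences of 0.32 and 0.55, but were called higher in kidney with libraries scaled by total counts alone (0.61 and 0.83). The summed CPM of the list was 2714.5 to 3186 in kidney and 1393 and 1687 in ureter.

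Genes of striated muscle differed between tissues as well. Of 21 striated muscle genes tested, 14 were higher in ureter and 3 in kidney. Tnnt2, the cardiac form of troponin T, had at most 0.618 CPM in kidney and 178 and 253 CPM in ureter. Myh6 had at most 0.660 CPM in kidney, and 46.1 and 40.6 CPM in the KO and WT ureters. Actc1, the cardiac actin, had 0.562 to 1.01 CPM in kidney, 49.8 CPM in the KO ureter and 203 CPM in the WT ureter, and Ckm, the creatine kinase of muscle, had 75.6 and 88.5 CPM in ureter. The summed CPM of the list was 31.0 to 34.8 in kidney, 453 in the KO ureter and 808 in the WT ureter. Acta1, an actin of skeletal muscle, had 24.9 and 61.5 CPM in the KO and WT ureters, and Tnni2 had 13.5 and 27.3 CPM. Myh3 and Myh8 were called higher in ureter at lower levels, with 0.639 and 4.16 CPM, and 0.336 and 7.11 CPM. The tissues overlapped for Myh8, and Mylpf, Neb, Ttn and Mb did not pass. Myog, a defining factor of skeletal muscle, had at most 0.117 CPM in any library, and Myh2 was listed at 0 in all 6. The part of attached muscle in the ureter values was not tested. Tnni1, Tnni3 and Ryr1 were higher in kidney at low levels, with at most 6.90 CPM in any library, and the call for Tnni3 was lost without any 1 of the kidneys or the KO ureter (0.82 to 1.88).

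Nerve and glial genes were higher in ureter for 9 of 13, with a median of -2.68. Sox10, the factor of Schwann cells, had 0.351 to 0.579 CPM in kidney and 7.36 and 7.99 CPM in ureter. Elavl4, an RNA-binding protein of neurons, was higher in kidney, at 10.3 to 16.0 CPM against 0.673 and 0.835 CPM. Among 12 immune genes, 7 were higher in ureter and 1, Ptprc, in kidney, at 17.6 and 20.2 CPM in KO kidneys, 7.73 and 9.50 CPM in WT kidneys and 7.63 and 6.47 CPM in ureters. The call for Ptprc was lost without either KO kidney, WT kidney replicate 2 or the KO ureter (0.41 to 0.84). Mrc1, a receptor of resident macrophages, had 14.95 to 21.3 CPM in kidney and 84.7 and 74.6 CPM in ureter, and the mast cell protease gene Mcpt4 had at most 0.0984 CPM in kidney and 20.8 and 35.3 CPM in ureter.

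Endothelial genes were divided. Of 14 tested, 5 were higher in kidney (35.7%) and 2 in ureter (14.3%), with a median of 0.18. These shares are not far from the 23.7% and 21.4% of all genes tested. Pecam1, Kdr, Tek and Erg, shared by most vessels, did not pass in edgeR. Emcn, Plvap and Ehd3, genes of capillary and glomerular endothelium, were higher in kidney by 1.53, 1.62 and 1.99. Vwf, which larger vessels express most, was at 6.11 to 8.76 CPM in kidney and 41.0 and 92.5 CPM in ureter (log2 difference -3.17, SE 0.306, edgeR adjusted p = 0.000438).

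The remaining lists cover tissues that lie beside the kidney and ureter, and cell states. Adrenal genes had a summed CPM of 8.30 to 13.3 in kidney and 6.76 and 10.8 in ureter, and of 10 tested 3 were higher in kidney and 1 in ureter. Of 6 adipose genes, 1 was higher in ureter, Adipoq, at 5.72 CPM in the KO ureter and 0.350 CPM in the WT ureter, a call lost without the KO ureter (-3.38) or any kidney but WT replicate 2. Of 3 mesothelial genes, Msln was higher in ureter and Gpm6a in kidney. Of 47 cytochrome P450 genes, 17 were higher in kidney (36.2%) and 7 in ureter (14.9%). Of 7 erythroid genes, 1 was higher in each tissue, but the globin counts were split between near-identical copies in different ways from library to library and are uncertain. Immediate early and stress genes were higher in ureter for 7 of 16 and in kidney for 0. Their summed CPM was 534 to 1250 in kidney, 1198 in the KO ureter and 3296 in the WT ureter, so that the KO ureter lay within the range of the kidneys. The part of these lists in the other differences was not tested.

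**Figure D5:**
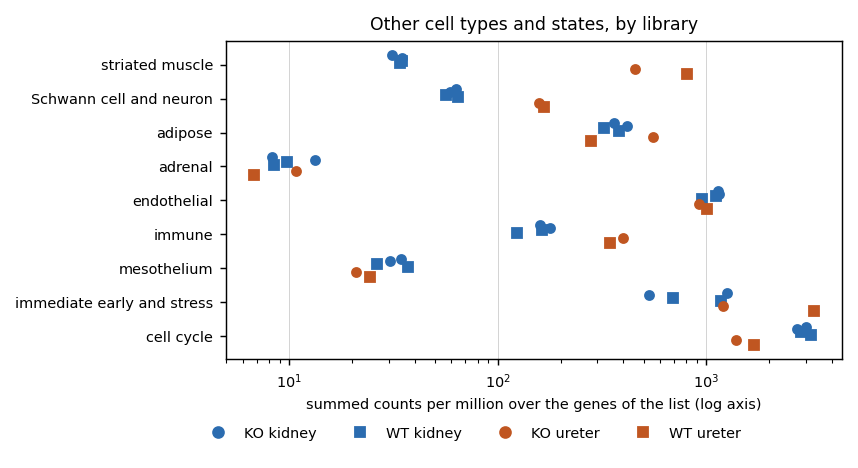
Summed CPM over the genes of 9 lists in each library on a log axis. Striated muscle, immune, and Schwann cell and neuron genes are higher in both ureters, cell cycle genes are higher in all 4 kidneys, and the immediate early and stress genes are highest in the WT ureter.

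Whether the tissue difference changed with genotype could be tested only weakly. A term for tissue by genotype passed for 19 genes (0.113%), among them the nephron genes Cited1 and Pou3f3 and the ribosomal transcript Rn45s. The test had 2 residual degrees of freedom and 1 ureter library per genotype, and 2156 genes had an unadjusted p under 0.05. Cited1 had 55.7 to 59.4 CPM in kidney, 5.14 CPM in the KO ureter and 0.466 CPM in the WT ureter. Pou3f3, a factor of the early nephron, had 57.2 to 64.9 CPM in kidney and was listed at 0 in the KO ureter and at 18.8 CPM in the WT ureter. Its direction by genotype was opposite to that of Cited1.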

How the data were processed

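Total RNA from PN1 kidneys or ureters was sequenced from stranded poly(A) libraries on an Illumina instrument. The authors deposited one table with estimated read counts, which are whole numbers, and FPKM and TPM values per gene for 4 kidney and 2 ureter libraries. The study's methods name Cutadapt, STAR, GRCm39 and Cufflinks, whereas the processing notes of the labels name Trimmomatic 0.38, HISAT2 2.1.0, StringTie 1.3.4b and mm10, so the aligner and build are uncertain. Of 24532 genes, 24462 matched RefSeq GRCm38, from which promoter sequences were taken.

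Counts were filtered with filterByExpr and scaled with TMM, and tissue was tested with genotype as a covariate by the quasi-likelihood test of edgeR 4.0.16 (R 4.3.3), with Benjamini-Hochberg adjustment over 16873 genes. This test, planned for raw counts, used the estimated counts as deposited. The SE of a difference was derived from the test, as the absolute log2 difference divided by the square root of its F statistic. CPM were computed from the counts, and 3 counts correspond to 0.0454 to 0.0824 CPM, which covers counting error only. Python 3.11.15 served for tables and plots, and the scripts were tested on simulated data. The members and gene lists were chosen with earlier results of these data known. Named genes were Ahnak, members of the lists and gene families, the 15 largest differences per tissue with no overlap and at least 10 CPM, and the 10 highest TPM per tissue. DESeq2 1.42.0, limma 3.58.1 on log2 FPKM with a pseudocount of 1 or 0.1, other scalings and filters, left-out libraries and a replicate block were tried as alternatives. A few results are not reported here.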

Additional observations from a re-analysis of the deposited data

Results flagged for a closer look

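Among the 4 kidney libraries, 13 of 190 values checked had 1 library far from the rest by the 95% limit of Dixon's ratio, where chance flags about 1 in 20. WT kidney replicate 2 was the low one in the summed collecting duct list (ratio 0.898, 878 CPM against 1004 to 1019), Cldn4 (0.901), Ehd3 (0.853) and Erg (0.865), and the high one in Pou3f3 (0.909), Hcn2 (0.830) and, at 0.0656 CPM against 0, Adipoq (1). KO kidney replicate 1 was the low one in Cited1 (0.901), Jag1 (0.851) and the 4 Y chromosome genes summed (0.919), and the high one in Xist, both as a gene and as a list (1). KO kidney replicate 2 was the only kidney with counts of Duox1 (1).

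The tissue difference differed by genotype for 19 genes in edgeR, with an adjusted p of 0.00663 for both Pou3f3 and Rn45s and 0.0212 for Cited1. Within KO libraries the log2 difference of Pou3f3 was 6.85 and within WT libraries 1.68, and that of Cited1 was 3.36 and 5.95. Each rests on 1 ureter library per genotype.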

How the results depend on the processing

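Beside 3992 genes higher in kidney and 3603 higher in ureter, scaling by total counts alone gave 6108 and 2371, and limma gave 6256 and 2466 with a pseudocount of 1 and 5945 and 2351 with 0.1, so that 72.0%, 71.7% and 71.7% of calls were higher in kidney and the median of all genes moved by 0.289, 0.168 and 0.278. A test against a fold of 2 with glmTreat gave 1214 and 1219. Leaving out 1 library gave 2710 to 3573 and 2448 to 3320, the lowest both times without the KO ureter. The replicate block, which pairs libraries by the number in their column names, had 1 residual degree of freedom and gave 2380 and 2447. The correlation of deviations from the tissue mean was 0.0488 and 0.0780 in the 2 pairs that share a number and -0.0780 to 0.0513 in the others. With 2 ureter libraries these deviations are mirror images, so part of the others repeats the shared pairs with the sign changed. Nothing in the labels says that a number marks an animal. The 19 genes with an interaction became 484 with the DESeq2 Wald test and 4 to 258 without 1 kidney, at 4 and 5 without WT kidney replicates 1 and 2, and 139 and 258 without KO replicates 1 and 2. The cause was not tested.

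List medians stayed within the replicate spread in 387 of 536 cases, moved in 142 and reversed in 7. The erythroid median became 0.029 (total counts alone), 0.057 (KO only) and 0.0067 (limma, 0.1), with -0.94 to 0.058 without 1 library, and the mesothelium median 0.12 (block) and 3.95 (WT only), with -2.20 to 3.95 without 1 library. Of genes that did not pass, sign changed in the following, in the order total counts alone, limma with 1 and limma with 0.1. Foxd1 became 0.11, 0.10 and 0.12, Pecam1 0.019, 0.033 and 0.034, Ptch1 0.27, 0.26 and 0.29, Synpo 0.18, 0.17 and 0.18, Tshz2 0.14, 0.14 and 0.15, and Tek 0.20, 0.19 and 0.20. Ptch1 was also 0.17 in KO only, Synpo 0.10 in WT only, Scnn1g 0.0105 in KO only, Kdr -0.050 with the block, and Xist -0.76 with the block and -0.87 in WT only. Without 1 library, Ptch1 ran from -0.19 to 0.18, Synpo from -0.31 to 0.094, Scnn1g from -0.67 to 0.0116, Kdr from -0.024 to 0.16, Cdkn1c from -0.042 to 0.17, Ptger3 from -0.079 to 0.50 and Xist from -0.88 to 11.31. With 2 ureter libraries, the spread within ureter is estimated mainly from the kidneys.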
